A study of Homo sapiens with 372 samples.

Results

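RNA polymerase II is the enzyme that makes messenger RNA, and the genes described here encode 10 of its subunits: POLR2A, POLR2B, POLR2C, POLR2D, POLR2E, POLR2F, POLR2G, POLR2H, POLR2I and POLR2K. They were taken by gene symbol, and all 10 were among the 9664 genes listed; 9655 of these genes, the 10 subunits included, had a value above 0 in more than 30% of the cells of at least 1 condition. POLR2J and POLR2L, the other two subunits of the complex, were also listed and are given beside them. The cells were A2780, a human cell line from an ovarian endometrioid adenocarcinoma, captured singly on a Fluidigm C1 system and sequenced with Smart-seq2, a full-length method that keeps no record of the RNA strand. The 6 conditions were control (46 cells), 5 nM paclitaxel for 16 h (56 cells) and 48 h (53 cells), 75 µM celecoxib for 2 h (63 cells) and 16 h (61 cells), and 5 nM paclitaxel with 75 µM celecoxib for 16 h (59 cells, called the combination). Paclitaxel binds and stabilizes microtubules, and celecoxib inhibits cyclooxygenase-2. The study asked how the drugs change the total amount of mRNA of single cells, and the enzyme that makes this mRNA was therefore set against that total.

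Each value is an E-value, log2(N/10 + 1). N stands for the abundance of a gene as TPM, transcripts scaled by length and by the library, divided by that of a spike-in RNA added in the same amount to every cell. A cell with more mRNA therefore has higher values for most genes. TPM is per transcript length, so N is set side by side between genes below, but how well this accounts for length was not tested. A second scale was computed in which every cell was brought to the same total of N over all genes listed, which removes the spike-in scaling; it is called the same total below. The labels name no separate cultures within a condition, so each condition counted as 1 sample, no test between conditions was made and no p-value is given. SDs are over cells, intervals of shares cover counting error only, and all 5 comparisons share the control cells. The read depth of the libraries was not used here, because the table holds no counts.

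Set against the median control cell, the log2 of the median total N was −0.99 and −0.64 after 16 and 48 h of paclitaxel, −0.76 and −1.52 with celecoxib for 2 and 16 h, and 0.49 with both drugs. The median number of genes detected per cell ran from 6125.5 to 6351 in the treated conditions and was 6630 in control cells. In the order of the library numbers, taken in blocks of 96, control cells lay in block 4 and 3 single-drug conditions in 1 other block each, so the effects of the drug, of the handling of each condition and of the block cannot be told apart. A control cell stood apart, with a log2 total of −2.13 against the control median, and a cell of the combination, at 2.85. Results that turn on the former are given without it. Of 16 marker genes of epithelial, ovarian, mesenchymal, leukocyte, endothelial and fibroblast cells, 3 were listed: VIM had a mean E-value of 3.70 in control cells, KRT18 of 0.59 and COL1A2 of 0.45. The labelled cell type could therefore not be checked with the epithelial and ovarian genes EPCAM and PAX8.

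RNA polymerase II forms its active centre between the largest subunits, POLR2A and POLR2B. POLR2A also carries the C-terminal repeat domain, whose phosphorylation marks the steps from initiation to elongation. POLR2C, with POLR2J, POLR2K and POLR2L, forms the platform on which the enzyme is assembled, and POLR2D with POLR2G forms the stalk near the exit of the RNA. POLR2I sits at the jaw and takes part in accurate transcription. POLR2E, POLR2F, POLR2H, POLR2K and POLR2L are shared with RNA polymerases I and III.

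The genes lie on different chromosomes, apart from POLR2E and POLR2I, which are both on chromosome 19. In hg38 with GENCODE 44, POLR2A spans chr17:7484366-7514616 on the plus strand, POLR2C spans chr16:57462660-57472009 on the plus strand and POLR2D spans chr2:127843553-127858155 on the minus strand. The canonical transcript of POLR2A is 6312 bases long and that of POLR2I 443 bases, the extremes among the 10. Exons of POLR2B, POLR2C, POLR2D, POLR2E, POLR2F and POLR2I overlap exons of other genes, such as DOK4 on the opposite strand of POLR2C and TBCB on that of POLR2I, and without strand the reads of such overlaps cannot be told apart. POLR2J has close paralogs, which makes its values uncertain.

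The sequences before the start sites of POLR2A, the catalytic subunit, and POLR2D show what these promoters hold. Among the 10, POLR2D was furthest below control with the combination at the same total. Both are read 5′ to 3′ on the strand of the gene, from RefSeq (GRCh38.p14), up to the base before the start. Capitals mark GC boxes (GGGCGG) and ETS cores (CGGAAG) on either strand. For POLR2A, the 102 bases at chr17:7484264-7484365 lie between the start and an exon of the neighbouring gene ZBTB4. For POLR2D, they are the 250 bases at chr2:127858156-127858405 on the minus strand.
POLR2A: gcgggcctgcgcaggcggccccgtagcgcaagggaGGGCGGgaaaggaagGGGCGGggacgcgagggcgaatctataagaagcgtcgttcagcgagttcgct
POLR2D: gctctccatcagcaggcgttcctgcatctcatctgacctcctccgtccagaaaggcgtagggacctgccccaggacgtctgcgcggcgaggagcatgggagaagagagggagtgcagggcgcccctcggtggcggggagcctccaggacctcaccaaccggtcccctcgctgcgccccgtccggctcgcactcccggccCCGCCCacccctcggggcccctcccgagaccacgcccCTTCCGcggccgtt
The stretch of POLR2A held 2 GC boxes and 68.6% G and C, and that of POLR2D 1 GC box, 1 ETS core and 72.0% G and C. RefSeq windows of 300 bases (250 before and 50 after the start) were at hand for 7 of the 10 genes, 9 windows in all. A gene was counted when any of its windows held the letters, whereas the shares of all windows count single windows. The counts and the shares are therefore not the same measure. The ETS core was in a window of 5 of the 7 (POLR2B, POLR2C, POLR2D, POLR2F and POLR2H) and in 19.5% of all 35116 windows of that length. The GC box was in 5 of the 7 (POLR2A, POLR2B, POLR2D, POLR2E and POLR2H) and in 45.0% of all windows. None of the 7 held the letters TATAAA (11.5% of all windows), CCAAT (34.6%) or CACGTG (7.26%). These are matches of letters and say nothing of binding.

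Polymerase II subunits differed widely in N in the same control cells. Median N was highest for POLR2I (1404), followed by POLR2F (1092), POLR2E (880), POLR2H (747), POLR2G (641), POLR2K (354), POLR2C (120), POLR2D (119) and POLR2B (89.0), and lowest for POLR2A (8.86). Neighbours in this order overlapped in their quartiles at all but 2 steps, from POLR2K (quartiles 212 and 501) to POLR2C (73.8 and 200) and from POLR2B (61.1 and 147) to POLR2A (3.13 and 44.5). POLR2G (487 and 818) and POLR2K overlapped narrowly. POLR2A, the catalytic subunit, was the lowest of the 10 in all 6 conditions. The lowest, POLR2A, has the longest canonical transcript of the 10 (6312 bases), and the highest, POLR2I, the shortest (443 bases). The part of transcript length and of overlapping exons in this order was not tested.

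POLR2A had a lowest, median and highest N of 0, 8.86 and 227 in control cells. After 16 h of paclitaxel these were 0, 3.08 and 59.9, and after 48 h 0, 7.65 and 120.0. With celecoxib they were 0, 3.93 and 83.8 at 2 h and 0, 1.91 and 50.5 at 16 h, and with the combination 0, 7.61 and 226. The ranges of all conditions overlapped, and the cells of the single-drug conditions other than paclitaxel for 48 h were concentrated at the lower end of the control range. The E-value was 1.37 ± 1.19 (SD over 46 cells) in control cells and 0.67 ± 0.79 (56 cells) after 16 h of paclitaxel, a difference of −0.70 within the spread over cells. POLR2B, the second largest subunit, had its lowest median N after 16 h of celecoxib (29.2) and its highest with the combination (152).

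**Figure D1:**
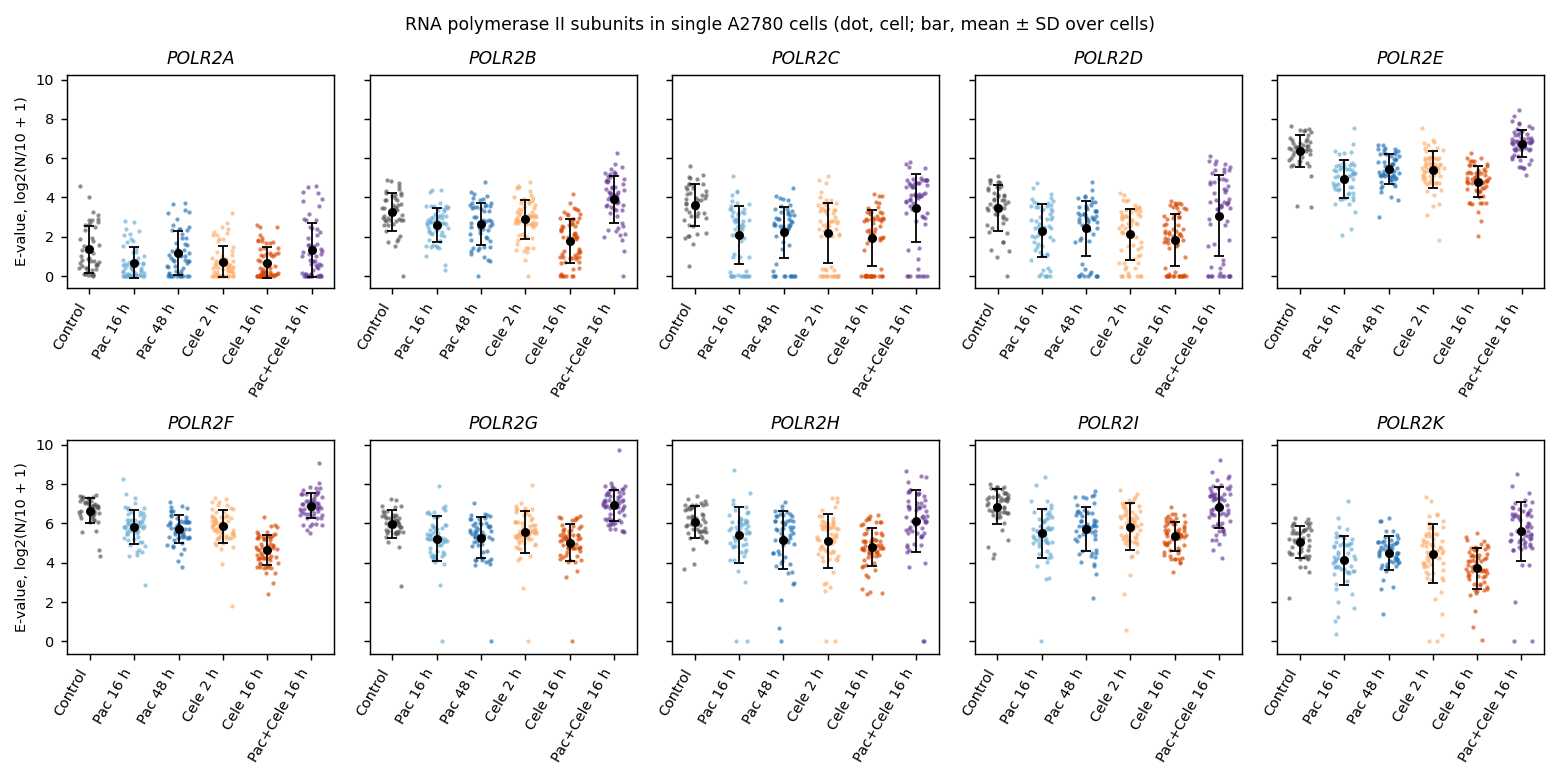
E-values (log2(N/10 + 1), y axis) of the 10 subunits in each cell (dots) of the 6 conditions (Pac, paclitaxel; Cele, celecoxib), with the mean and SD over cells (black). POLR2A was the lowest of the 10 in every condition, and the mean E-value of every subunit was lower after 16 h of celecoxib than in control cells.

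All 10 subunits were lower after 16 h of paclitaxel and after 16 h of celecoxib than in control cells, by more than 1.5-fold (0.585 on the log2 scale) in mean E-value. In the same comparisons, 37.3% and 43.9% of all genes were lower by that much. After 48 h of paclitaxel 8 of 10 were past this limit (26.6% of all genes), with POLR2A (−0.19) and POLR2K (−0.55) short of it. After 2 h of celecoxib 8 of 10 were past it (25.7% of all genes), with POLR2B (−0.38) and POLR2G (−0.42) short of it. With the combination, POLR2G (0.94) and POLR2B (0.65) were higher by more than the limit, POLR2K (0.54) lay just short of it, and 30.4% of all genes were past it. No subunit was past the limit in the other direction, where the share of all genes was 0.0932% and 0.922% with paclitaxel for 16 and 48 h, 1.12% and 0.383% with celecoxib for 2 and 16 h, and 1.76% with the combination. The median difference of the 10 was −0.88, −0.93, −0.88, −1.50 and 0.15 in the order of conditions paclitaxel 16 h, 48 h, celecoxib 2 h, 16 h and combination, and that of all genes −0.41, −0.26, −0.26, −0.48 and 0.33. A gene of low level moves less on this scale, because 10 is added to N.

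Both conditions that were split over library blocks differed between them. For paclitaxel for 48 h, the 31 cells in the block of the control cells had 5 of 10 subunits below the limit (22.5% of all genes), namely POLR2C, POLR2D, POLR2E, POLR2F and POLR2I. The other 22 cells had 9 of 10 (33.7% of all genes). Median summed N of the 10 subunits was 3400 in the former and 2220 in the latter. With the combination, 2 subunits were past the upper limit in each block, POLR2G (0.89) and POLR2K (0.88) in block 1 and POLR2G (1.00) and POLR2B (0.77) in block 3, where POLR2K was at 0.09. POLR2D was at 0.03 in block 1 and past the lower limit in block 3, at −0.93. Over both blocks of the combination, 30.4% of all genes were past the upper limit and 1.76% past the lower. These shares were not computed for each block, so the block counts cannot be set against all genes. Without the control cell of lowest total, POLR2G (0.87) alone was past the limit with the combination (28.8% of all genes), and POLR2B was at 0.58.

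POLR2F, a shared subunit of the enzyme's base, was furthest from control after 16 h of celecoxib. Its lowest, median and highest N were 195, 1092 and 1723 in control cells and 43.9, 249 and 806 after 16 h of celecoxib, and all 61 treated cells lay below the control median. The mean E-value was 6.65 ± 0.64 (SD, 46 cells) against 4.64 ± 0.75 (SD, 61 cells), so that the difference of −2.01 was larger than either SD. POLR2E, which is shared as well, was lower by 1.56 on the log2 scale in the same cells, and again all 61 lay below the control median. POLR2I was the third subunit with all 61 cells below the control median, at 6.86 ± 0.88 in control cells and 5.34 ± 0.75 after celecoxib. POLR2H and POLR2K, 2 more of the shared subunits, differed by −1.29 and −1.33.

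POLR2G, one of the stalk subunits, moved least among the more abundant subunits in celecoxib-treated cells and most with the combination. Its lowest, median and highest N were 59.7, 641 and 1502 in control cells, 0, 354 and 828 in cells given celecoxib for 16 h, and 469, 1276 and 8661 in those given both drugs. In mean E-value this was 5.99 ± 0.71, 5.03 ± 0.95 and 6.93 ± 0.80 (SD over cells). Of the 59 cells of the combination, 10 lay below the control median. The ranges overlapped in all of these conditions.

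POLR2G also changed its place in the order of the subunits. It was at rank 5 in control cells, rank 2 after 16 h of celecoxib and rank 1 with the combination. The subunits it passed moved too. At the same total, POLR2I differed from control by −0.74 and POLR2G by 0.24 with the combination. After 16 h of celecoxib, POLR2F differed by −0.65 and POLR2G by 0.39 on that scale. Within single cells, which does not depend on the spike-in, POLR2G was above POLR2I in 6 of 46 control cells (13.0%, exact Clopper-Pearson 95% interval 4.94 to 26.3%) and in 31 of 59 cells of the combination (52.5%, 39.1 to 65.7%). In the single-drug conditions this share was 39.3% and 30.2% with paclitaxel for 16 and 48 h and 36.5% and 36.1% with celecoxib for 2 and 16 h, so it was above that of control cells in all 5 treatments. POLR2G was above POLR2F in 8 of 46 control cells (17.4%, 7.82 to 31.4%) and in 42 of 61 cells after 16 h of celecoxib (68.9%, 55.7 to 80.1%), and in 32.1% to 55.9% of the cells of the other treatments. The partner of POLR2G in the stalk, POLR2D, was below it in all 46 control cells and in all 59 cells of the combination. The neighbours at the top of the order in the combination, POLR2G (1276), POLR2I (1237), POLR2F (1153) and POLR2E (1092), overlapped in their quartiles.

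POLR2C, part of the assembly platform, was detected in all 46 control cells (100%, interval 92.3 to 100%) and in fewer of the treated cells. The share was 78.6% (65.6 to 88.4%) and 81.1% (68.0 to 90.6%) after 16 and 48 h of paclitaxel. It was 77.8% (65.5 to 87.3%) and 72.1% (59.2 to 82.9%) with celecoxib for 2 and 16 h, and 86.4% (75.0 to 94.0%) with both drugs. The median gene of all those tested was detected in 71.7% of control cells and in 65.1 to 66.1% of the cells of the treated conditions. Median N of POLR2C was 120 in control cells, 46.0 and 49.1 with paclitaxel, 49.0 and 39.9 with celecoxib and 159 with the combination. The combination thus held cells at 0 next to cells above the control median, and among the cells where it was detected its mean E-value was 4.01 against 3.62 in control cells.

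POLR2D, too, was detected in a lower share of the cells of every treatment than of control cells (97.8%, 88.5 to 99.9%). The share was 91.1% (80.4 to 97.0%) and 86.8% (74.7 to 94.5%) with paclitaxel for 16 and 48 h and 90.5% (80.4 to 96.4%) and 78.7% (66.3 to 88.1%) with celecoxib for 2 and 16 h. With both drugs it was 81.4% (69.1 to 90.3%), while that of POLR2C was higher there than in the other treatments. Its lowest, median and highest N were 0, 119 and 337 in control cells and 0, 114 and 688 with the combination, so that the medians were close while the range was wider on the upper side. Mean E-value was 3.46 ± 1.17 in control cells and 3.08 ± 2.06 (SD over cells) with the combination. POLR2A was detected in 97.8% of control cells and in 78.0% (65.3 to 87.7%) of those with the combination, the lowest share it had. POLR2B differed from these, at 97.8% in control cells and 98.3% (90.9 to 100.0%) with the combination. All 10 subunits were detected together in 93.5% of control cells (82.1 to 98.6%) and in 49.2% (36.1 to 62.3%) to 60.7% (46.8 to 73.5%) of the cells of the treated conditions. Such a share was not computed for other genes of like level, so it cannot be called particular to the subunits. Detection depends on read depth and on which cells the authors kept, whose parts in this were not tested.

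**Figure D2:**
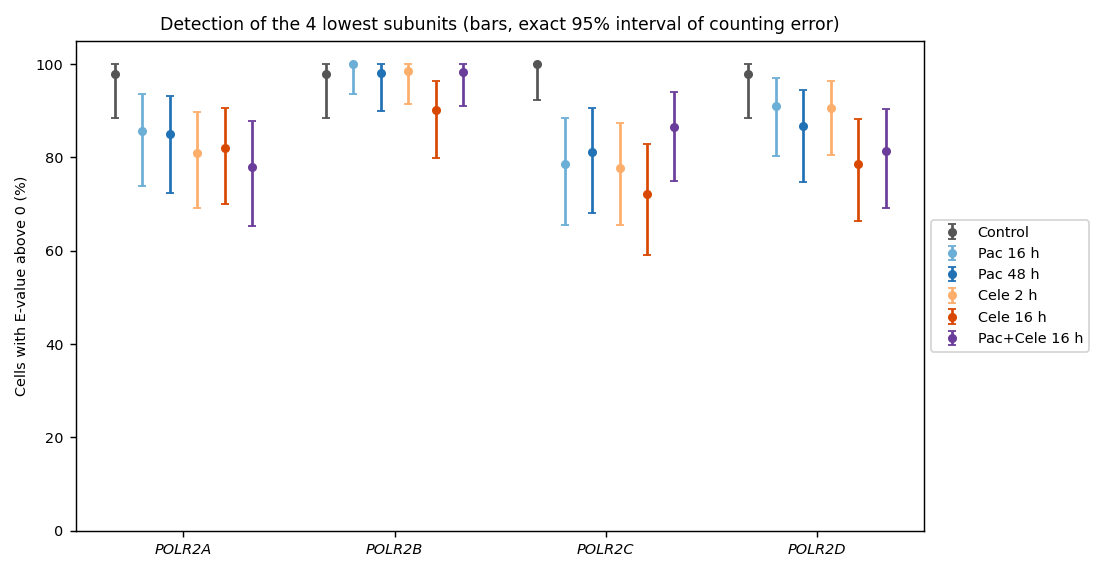
Share of cells (%, y axis) in which POLR2A, POLR2B, POLR2C and POLR2D had an E-value above 0 in the 6 conditions, with exact 95% intervals (bars). POLR2C was at 100% in control cells and between 72.1% and 86.4% in the treated conditions, while POLR2B stayed at or above 90.2% in all 6.

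At the same total per cell, most of the differences in the single-drug conditions were smaller. With the combination the median difference of the 10 was 0.15 as deposited and −0.38 at the same total. No subunit was higher than control by more than the limit in any condition at the same total. This scale asks whether the subunits moved more or less than the rest of the RNA of the cell. After 16 h of paclitaxel, POLR2C (−0.96), POLR2E (−0.64) and POLR2I (−0.59) were lower by more than the limit, 3 of 10 where 10.0% of all genes were (1.40% were higher). After 48 h of paclitaxel POLR2C alone was (−0.86; 5.78% of all genes lower, 3.28% higher). After 2 h of celecoxib POLR2C (−0.97) and POLR2D (−0.85) were past it (8.12% lower, 3.31% higher). After 16 h of celecoxib POLR2C (−0.71), POLR2F (−0.65) and POLR2D (−0.64) were (7.95% lower, 7.37% higher). With the combination POLR2D (−0.80), POLR2I (−0.74), POLR2C (−0.63) and POLR2H (−0.60) were past it, where 5.80% of all genes were lower and 5.96% higher by as much.

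Of the 10, POLR2C was the one that passed the lower limit in all 5 treatments at the same total. With the combination it passed narrowly, at −0.63. As deposited it passed in the 4 single-drug conditions, and its difference with the combination was −0.15. This was 0.13 in block 1 and −0.53 in block 3, and 0.21 from linear means over both. POLR2B and POLR2G, which led with the combination as deposited, differed from control by 0.06 and 0.24 at the same total. Below control at the same total, by any amount, were 7 of the 10 subunits after 16 h of paclitaxel and 8 of 10 in each of the other 4 treatments. Of all genes, 61.0%, 49.4%, 53.3%, 45.2% and 46.2% were, in the order given above. The median difference of the 10 was −0.27, −0.31, −0.38, −0.17 and −0.38, and that of all genes −0.07, 0.00, −0.02, 0.03 and 0.02. These differences were smaller than the SD of the deposited E-values over control cells, apart from POLR2F after 16 h of celecoxib, where both were close to 0.65. Of the values that were past the limit as deposited, 5 changed sign, namely POLR2B (0.07), POLR2G (0.03) and POLR2H (0.13) after 16 h of paclitaxel, and POLR2G (0.39) and POLR2H (0.07) after 16 h of celecoxib.

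**Figure D3:**
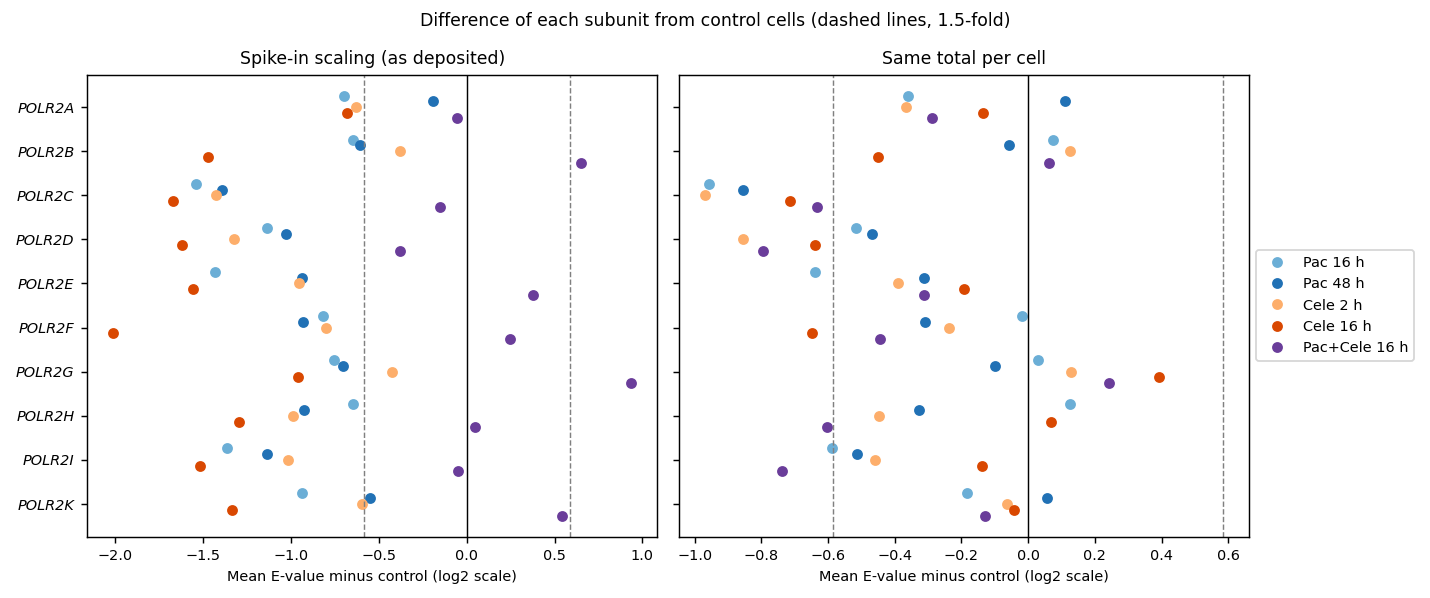
Difference in mean E-value from control (x axis, log2 scale) of each subunit in the 5 treatments, as deposited (left) and at the same total per cell (right), with dashed lines at 1.5-fold. On the left all single-drug values lie below 0, and on the right no subunit passes the upper line while POLR2C passes the lower line in all 5 treatments.

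From linear means of N, 8, 8, 7 and 10 of the 10 subunits were lower by more than the limit in the single-drug conditions (59.7%, 44.0%, 39.1% and 76.0% of all genes), and 3 were higher with the combination (POLR2B, POLR2G and POLR2K; 72.2% of all genes). With 1 in place of 10 added to N, 10, 8, 8 and 10 were lower (57.1%, 43.9%, 44.5% and 62.7% of all genes). With the combination 2 were then higher (38.5%), and POLR2D was lower, at −0.97. From linear means POLR2D was above control with the combination, at 0.35. The median difference of the subunits from linear means was −0.93, −0.78, −0.82, −1.57 and 0.35, and that of all genes −0.72, −0.50, −0.43, −1.09 and 0.93. With the combination, a smaller share of the subunits than of all genes was past the limit on each of these scales.

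Together, the 10 subunits made up a median of 3632 millionths of the total N of a control cell (lowest 2174, highest 5413). The share was 3418 and 3202 millionths after 16 and 48 h of paclitaxel and 3261 and 3612 when celecoxib had been given for 2 and 16 h. It was lowest with the combination, at 2977 (lowest 2161, highest 3974; SD over cells 429, against 588 in control cells), where 55 of 59 cells lay below the control median. In both blocks of the combination the median was near this value, at 2983 in 34 cells and 2974 in 25 cells. After 48 h of paclitaxel it was 3319 in the 31 cells of the control cells' block and 3028 in the other 22 cells, all 22 of them below the control median. The summed N, by contrast, was highest with the combination, with a median of 6453 against 5423 in control cells, a ratio of 1.19. It was 0.483 and 0.548 of the control median with paclitaxel and 0.550 and 0.366 with celecoxib. The summed RNA of the subunits and their share of the total therefore ran in opposite directions with the combination, and after 16 h of celecoxib the sum was at its lowest with the share close to that of control cells.

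Single subunits differed in how their share of the total compared between control cells and the combination. POLR2I, which is particular to polymerase II, held a median of 795 millionths in control cells and 488 with the combination. The shared subunits POLR2E (576 and 469), POLR2F (699 and 530) and POLR2H (464 and 345) held less too, whereas the shared POLR2K (239 and 241) did not, and POLR2G (462 and 536) held more. POLR2E, POLR2F, POLR2H and POLR2K together held 2021 millionths of the total in control cells and 1600 with the combination. The 6 others held 1575 and 1351. The stalk subunits POLR2D and POLR2G held 551 in control cells, 640 in cells given celecoxib for 16 h and 618 in those given both drugs, and POLR2A and POLR2B held 79.7, 65.6 and 83.0. The interquartile ranges of the shared subunits in control cells (1820 to 2358) and with the combination (1391 to 1848) overlapped slightly.

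**Figure D4:**
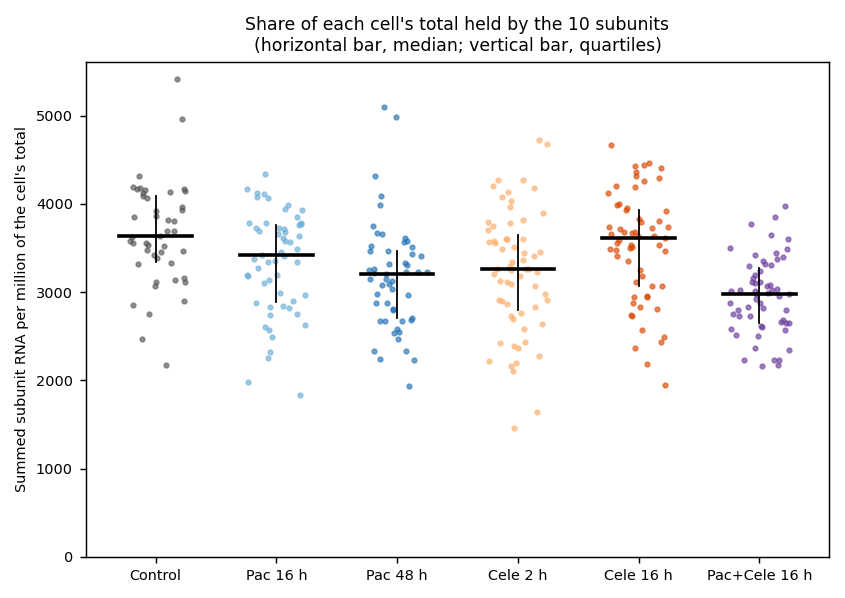
Summed N of the 10 subunits in millionths of the total N of each cell (y axis) in the 6 conditions, with the median (horizontal bar) and quartiles (vertical bar). The medians run from 2977 with the combination to 3632 in control cells, and the cells of all conditions overlap.

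Within each condition, cells with more mRNA had more RNA of the polymerase subunits. Pearson's r between the log2 summed N of the 10 subunits and the log2 total was 0.93 in control cells (46 cells), 0.94 and 0.91 with paclitaxel for 16 and 48 h (56 and 53 cells), 0.89 and 0.88 with celecoxib for 2 and 16 h (63 and 61 cells) and 0.94 with the combination (59 cells). Both quantities of a cell come from 1 library and are divided by the same spike-in value, which ties them together, so these values are a description. Without the control cell of lowest total, r in control cells was 0.89. Without the combination cell of highest total, r with the combination was 0.92. The slopes, and r of single subunits and of other gene lists, were not recomputed without these cells. The least squares slope was 1.12, 1.10, 1.16, 1.23, 1.12 and 1.02 in the same order, above 1 in every condition. Sums of other parts of the transcription machinery followed the total as well. In control cells r was 0.91 for the general transcription factors, 0.89 for Mediator, 0.93 for assembly and import factors of polymerase II, 0.85 for subunits of polymerases I and III and 0.83 for pausing and elongation factors, with slopes of 0.99, 0.89, 1.34, 1.22 and 0.96. Once cells were brought to the same total, r of the summed subunits with the original total was 0.26 in control cells and 0.05 with the combination.

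Single subunits followed the total less closely than their sum. In control cells r was highest for POLR2E (0.91) and POLR2H (0.84) and lowest for POLR2C (0.38) and POLR2A (0.39). The median r of all genes was 0.27, but it depended on level: it was 0.70 over the 542 genes at the level of POLR2E to POLR2K and 0.45 over the 347 genes at that of POLR2B to POLR2D. The subunits thus lay on both sides of genes of like level. After 16 h of celecoxib, POLR2F had the highest r (0.64) and POLR2C the lowest (0.25), and the median of genes at the level of the abundant subunits was 0.51.

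**Figure D5:**
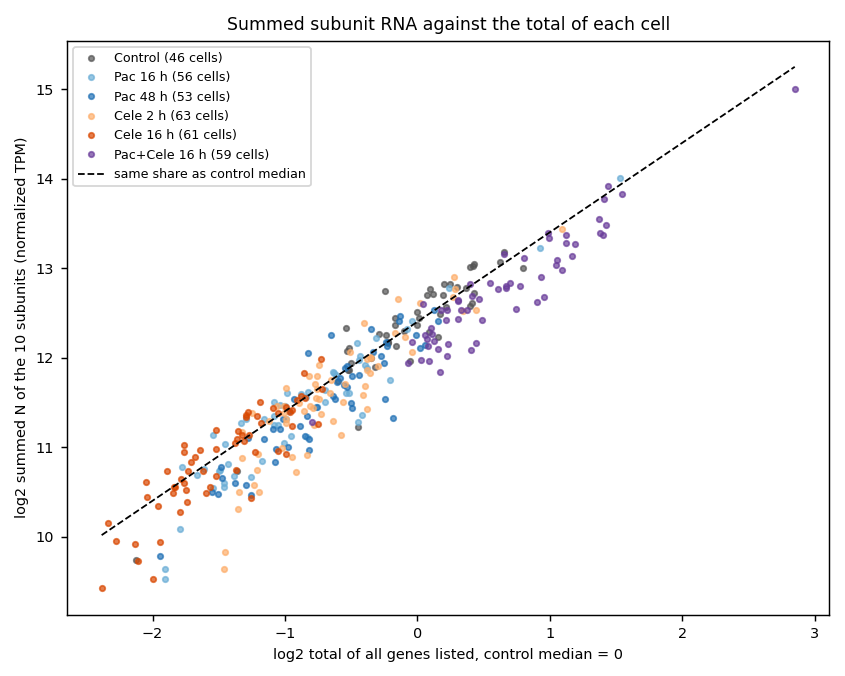
Log2 of the summed N of the 10 subunits (y axis) against the log2 total of all genes listed (x axis, control median at 0) in each cell, by condition, with a dashed line at the control median share. Cells of all conditions lie along this line (r of 0.88 to 0.94 within conditions), and those of the combination lie mostly below it.

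The subunits followed each other weakly once cells had the same total. Over the 45 pairs of subunits, with condition means removed, the median r between E-values over 338 cells was 0.27, from 0.11 to 0.56, and 0.13 over all pairs of the 6548 genes with a value above 0 in at least 50% of the cells. At the same total per cell the median r was 0.04 over the 45 pairs (from −0.11 to 0.18) and 0.01 over all pairs. The 3 genes of the 6538 ranked with values most like the mean of the 10 subunits at the same total were PRIM1 (r = 0.31), the DNA primase catalytic subunit, RNASEH2A (r = 0.30), a subunit of ribonuclease H2, and NUP107 (r = 0.30), a nuclear pore protein. These are weak correlations over cells and are given as a description.

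POLR2L, a small shared subunit, differed further from control than the 10 after 16 h of celecoxib. Its lowest, median and highest N were 331, 1011 and 2662 in control cells, 40.7, 215 and 464 in cells given celecoxib for 16 h, and 251, 630 and 3738 in those given both drugs. Every one of the 61 celecoxib-treated cells lay below the control median, and the difference in mean E-value was −2.29 (−0.93 at the same total). With the combination it was −0.54 as deposited and −1.22 at the same total, the latter lower than that of any of the 10. POLR2J, of the assembly platform, differed by −1.05 and −0.87 with paclitaxel, −0.71 and −1.42 with celecoxib and 0.28 with the combination. POLR2M, which despite its symbol is no subunit of the core enzyme, differed by −0.82, −0.48, −0.31, −0.11 and 0.41 and was detected in 78.3% of control cells.

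The other parts of the transcription machinery are set against the same shares of all genes, 37.3%, 26.6%, 25.7% and 43.9% lower by more than the limit in the 4 single-drug conditions and 30.4% higher with the combination. Several of their counts lie near or below these shares. Of 19 subunits particular to RNA polymerases I and III, 12, 12, 11 and 12 were lower by more than the limit with paclitaxel for 16 and 48 h and celecoxib for 2 and 16 h. Of 30 general transcription factors, 16, 11, 9 and 16 were. With the combination, 11 of the 30 general transcription factors were higher by more than the limit and none lower, against 2 of 19 subunits of polymerases I and III higher and 2 lower. POLR3K, a small subunit of polymerase III, differed by −2.14 after 16 h of celecoxib, and POLR3G by −1.85. POLR3GL and POLR3G are alternative subunits of polymerase III, and POLR3GL was higher by 2.23 with the combination (E-value 3.79 ± 1.46 against 1.56 ± 1.23, SD over cells), and by 1.43 at the same total. Among the general transcription factors, GTF2A2 of TFIIA (−1.98) and TAF9 of TFIID (−1.61) were furthest from control after 16 h of celecoxib, and GTF2H3 (1.16) and MNAT1 (1.10) of TFIIH with the combination.

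Mediator, the complex that connects activators to the polymerase, had 13, 11, 8 and 16 of 29 members lower by more than the limit with the single drugs and 6 higher with the combination, against 37.3%, 26.6%, 25.7% and 43.9% of all genes lower and 30.4% higher. MED10 (−1.95) and MED6 (−1.85) were furthest from control after 16 h of celecoxib, and MED7 (1.02) and MED30 (0.94) with the combination. Of 28 pausing and elongation factors, 13, 9, 6 and 18 were lower and 4 higher with the combination. NELFCD, of the negative elongation factor, differed by −2.26 after 16 h of celecoxib, and WDR61, of the PAF1 complex, by −1.99. TCEA1, the elongation factor that rescues backtracked polymerase, was higher by 1.65 with the combination (0.96 at the same total), and CDC73 by 0.98. Of 16 factors of polymerase II assembly, import and tail dephosphorylation, 9, 9, 7 and 12 were lower and 5 higher with the combination. RUVBL2 (−2.31) and PIH1D1 (−2.17), members of the R2TP chaperone complex, were furthest after 16 h of celecoxib, and GPN1 (0.78) and RPRD1A (0.68) with the combination. From linear means, more members were higher by the limit with the combination, namely 10 of 19 subunits of polymerases I and III, 24 of 30 general transcription factors, 20 of 29 Mediator members, 20 of 28 pausing and elongation factors and 12 of 16 assembly factors, where 72.2% of all genes were. At the same total, 4, 5, 6 and 2 of the 19 subunits of polymerases I and III were lower by the limit in the single-drug conditions. The shares of all genes there were 10.0%, 5.78%, 8.12% and 7.95%. Of the 30 general transcription factors 2, 0, 2 and 2 were lower, and of the 29 Mediator members 4, 1, 3 and 5. The pausing and elongation factors had 2, 0, 3 and 2 of 28 lower, and the assembly factors 2, 0, 1 and 4 of 16. With the combination at the same total, 4 subunits of polymerases I and III, 2 Mediator members and 2 pausing and elongation factors were lower (5.80% of all genes), and no list had more than 1 member higher (5.96% of all genes).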

How the data were processed

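A2780 cells were profiled in 6 conditions, with 338 of 372 listed cells in the table used here. The authors left out the others because their housekeeping genes had a low mean E-value. All 59 cells of the combination were kept, while control cells and those given paclitaxel for 48 h lost the most. What this filter did to the totals and the detection shares was not tested. The authors trimmed reads with Trim Galore and quantified transcripts with RSEM 1.3.0 and Bowtie2 against hg38 with GENCODE 28 and spike-in RNAs, as per the labels and the study's methods. The authors deposited log2 E-values, log2(N/10 + 1), where N is TPM relative to the spike-in of highest amount. The table also holds a predicted state of each cell, which was not used.

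N was recovered from the E-values, and the same total was reached by scaling each cell to the median total. Differences are mean E-values of treated minus control cells, set against a limit of 1.5-fold (0.585 on the log2 scale) over the 9655 genes above 0 in more than 30% of the cells of a condition. Shares carry exact Clopper-Pearson 95% intervals. The subunits and the 5 gene lists were chosen with earlier results of these data known. The genes named were the 10 subunits, POLR2J, POLR2L and POLR2M, the 2 genes of each list furthest from control after 16 h of celecoxib and the 2 with the combination, and the 3 genes most like the subunits. Of the genes this rule names, 1 is not reported here. Where a cell's label noted 0 or debris (1 cell), results were recomputed without it. The difference and slope steps were tested on simulated data. Calculations ran in Python 3.11.15 with pandas 2.3.3, numpy 2.4.6 and scipy 1.17.1, and plots in matplotlib 3.10.9.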

Additional observations from a re-analysis of the deposited data

Results flagged for a closer look

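Adding celecoxib for 16 h went with opposite differences in polymerase subunit RNA depending on whether paclitaxel was present. The median summed N of the 10 subunits in celecoxib cells was 0.366 times that of control cells, and in the combination 2.46 times that of cells given paclitaxel for 16 h. All 10 subunits were lower in the first comparison and higher in the second, for example POLR2F (−2.01 and 1.06), POLR2E (−1.56 and 1.81) and POLR2A (−0.68 and 0.65). So were 88.3% of all genes. At the same total per cell, 4 of the 10 subunits had this pattern, as had 25.9% of all genes. The difference between the comparisons was not tested, since each condition was 1 sample.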

How the results depend on the processing

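Each condition was 1 sample, so the depth, the handling and the drug cannot be separated. No read counts were at hand, and a value of 0 may be a lack of reads. No paired analysis was possible because the conditions share no replicate numbers and no test was made. At the same total per cell, 3 subunits after 16 h and 1 after 48 h of paclitaxel were lower by more than the limit. So were 2 after 2 h and 3 after 16 h of celecoxib. With the combination 4 were lower and 0 higher. In single genes the same total turned POLR2B (0.075), POLR2G (0.029) and POLR2H (0.13) after 16 h of paclitaxel. It also turned POLR2G (0.39) and POLR2H (0.068) after 16 h of celecoxib. The other 45 differences kept their sign or were not past the limit. With the block of the control cells alone, 5 subunits were lower after 48 h of paclitaxel, and without the control cell of lowest total, an alternative chosen after seeing the data, 1 was higher with the combination. Leaving out the combination cell of highest total, also chosen after seeing the data, left this count at 2. Linear means (8, 8, 7 and 10 lower, 3 higher) and a pseudocount of 1 (10, 8, 8 and 10 lower, 2 higher) stayed within 1.5 times the deposited counts of 10, 8, 8 and 10 lower and 2 higher. Leaving the 50 most abundant genes out of the total gave shares of 4337 millionths in control cells, 4151 and 3876 with paclitaxel for 16 and 48 h, 4343 after 16 h of celecoxib and 3569 with the combination, since the total is then smaller by construction. The correlation of the summed subunits with the total was 0.26, 0.24, 0.28, 0.35, 0.20 and 0.051 at the same total, in the order control, paclitaxel 16 and 48 h, celecoxib 2 and 16 h and combination, and 0.89 and 0.97 in the 2 blocks of the combination. The authors had kept only genes detected in more than 30% of the cells of a condition, so dropping the same filter here could change little. With no gene filter (9664 genes) the shares of all genes past the limit were 37.3, 26.6, 25.7, 43.9 and 30.4%. With genes detected in over 50% of cells they were 45.9, 33.0, 31.8, 54.1 and 36.0%.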
